A study of Mus musculus with 24 samples.

Results

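Expression of the 10 genes of the pentose phosphate pathway and of de novo pyrimidine synthesis was examined in L4 dorsal root ganglion (DRG) neurons of control and Nav-Tsc2 mice. The genes were taken by symbol from the 47643 identifiers counted in every library: G6pdx, Pgls and Pgd of the oxidative branch, Rpia, Rpe, Tkt and Taldo1 of the nonoxidative branch, and Cad, Dhodh and Umps of pyrimidine synthesis. All 10 were among the 17178 genes tested. Between genotypes, Cad transcripts rose about 1.92-fold in Nav-Tsc2 neurons and Dhodh transcripts fell to 0.627 of the control level. Each was 1 of the 10 genes, near the shares of all genes called, 9.12% higher and 8.00% lower. The adjusted p stayed under 0.05 in 10 of 16 other fits for Cad and in 7 of 16 for Dhodh. Taldo1 transcripts were 1.41-fold higher with an adjusted p of 0.00202, at a log2 fold change just under the size required of a call. No other gene of the set passed the test.

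The pentose phosphate pathway draws glucose 6-phosphate away from glycolysis. Its oxidative branch makes NADPH, which keeps glutathione reduced and feeds lipid synthesis, and its nonoxidative branch makes ribose phosphate and returns surplus sugars to glycolysis. Ribose phosphate, once activated to phosphoribosyl pyrophosphate (PRPP), is the sugar of every nucleotide, and the pyrimidine pathway assembles the uracil ring and joins it to PRPP to give UMP. Both pathways are known targets of mTORC1, the growth-promoting kinase complex that Tsc2 restrains: in dividing cells mTORC1 raises transcripts of pentose phosphate enzymes, and its substrate S6 kinase phosphorylates the Cad protein. Neurons do not divide, and are known to use the oxidative branch mainly against oxidative stress and to meet much of their pyrimidine need by salvage.

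Each of the 24 libraries came from 100 GFP-positive L4 DRG cells collected by flow cytometry. Control mice carried Nav1.8-Cre with Tsc2 flox/+ and Rosa26-ZsGreen, so their Cre-positive neurons kept 1 intact copy of Tsc2, and Nav-Tsc2 mice carried Nav1.8-Cre with Tsc2 flox/null and Rosa26-ZsGreen. Every group used was thus positive for Cre and for the green reporter, on a mixed C57BL/6 and AJ background, at 8 to 9 weeks of age. Ganglia lay on the side opposite a sciatic nerve crush made 3 d earlier, in both genotypes. Cre under the Nav1.8 gene acts in most nociceptors and in part of the myelinated neurons, so the sorted cells are a mixture. There were 4 mice per genotype, replicates 1 and 2 male and replicates 3 and 4 female, with 3 technical libraries (A to C) from each mouse.

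Counts on genes ranged from 12210899 to 28641787 in control libraries and from 8339220 to 34228180 in Nav-Tsc2 libraries. Genes with a count numbered 15925 to 18544 in control libraries and 17891 to 20466 in Nav-Tsc2 libraries. Counts not assigned to a gene made up 48.8 ± 1.2% (SD, n = 12 libraries) in control and 51.1 ± 1.94% in Nav-Tsc2 libraries. The part of these differences in the levels of genes with few reads was not tested. The sum of the 3 libraries lay between 47959617 and 61290435 counts for the 8 mice. Levels are given as CPM, the counts of a gene per 1000000 counts of the mouse after scaling of the totals with TMM factors. Tsc2 fell in Nav-Tsc2 mice, from 13.4, 24.7, 21.5 and 24.1 CPM to 8.70, 8.51, 7.30 and 10.9 CPM (log2 fold change −1.24, SE 0.22, adjusted p = 0.00400), and 7.20% of its exon sequence is shared with Pkd1 on the other strand.

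Other cells were measured through marker lists. The 10 neuronal markers summed to 9700 to 12300 CPM in control and 12000 to 15000 CPM in Nav-Tsc2 mice, and Tubb3 alone made up most of these sums, at means of 5908 and 7774 CPM. Among them Prph was called higher in Nav-Tsc2 mice (902 against 1481 CPM on average, adjusted p = 0.0111), while Isl1 (385.5 against 221.5 CPM, adjusted p = 0.00331) and Rbfox3 (98.5 against 55.6 CPM, adjusted p = 0.00853) were called lower. The 12 glial markers summed to 2990 to 3120 CPM in control and 1970 to 2560 CPM in Nav-Tsc2 mice, and only S100b among them, which myelinated neurons also express, was called, at 939 CPM in control and 98.6 CPM in Nav-Tsc2 mice on average. The 7 endothelial markers summed to 0.508 to 2.13 CPM in control and 7.81 to 20.6 CPM in Nav-Tsc2 mice, the 7 macrophage markers stood at 2.33 to 7.13 CPM against 9.73 to 20.8 CPM, the 6 fibroblast markers at 73.1 to 236 CPM against 121 to 196 CPM, and the 5 red blood cell markers at 1.63 to 2.80 CPM against 0.473 to 0.672 CPM. Pmp22 was the highest glial marker, at means of 1481 and 1570 CPM. Dcn made up most of the fibroblast sums, at means of 154.8 CPM in control and 112.7 CPM in Nav-Tsc2 mice. Col1a1, Col1a2, Col3a1 and Pdgfra had higher means in Nav-Tsc2 mice and Lum a lower one, and no fibroblast marker was called. Of the defining markers, Hbb-bt was at 0 in every mouse, and Cldn5 and C1qa were at or near 0 in all of them. Some other endothelial and macrophage markers were called higher in Nav-Tsc2 mice. Flt1 of endothelium rose from a mean of 0.0338 to 8.56 CPM (adjusted p = 0.000142) and Ly6c1 from 0.0182 to 2.63 CPM (adjusted p = 0.000481). Kdr, also endothelial, went from 0.358 to 1.76 CPM at an adjusted p of 0.0469 that stayed under 0.05 in 7 of 15 other fits. Cx3cr1 of macrophages rose from 0.0328 to 5.71 CPM (adjusted p = 9.98e-05). Tek of endothelium, at a mean of 0.510 CPM in control and 0.563 CPM in Nav-Tsc2 mice, was not called. Pecam1 (0.422 against 0.315 CPM) and Cdh5 (0.0511 against 0.1145 CPM) were not tested. Csf1r of macrophages (0.803 against 3.71 CPM) and Cd68 (0.495 against 2.03 CPM) were not called. The same was so of Aif1 (0.870 against 1.10 CPM), Mrc1 (0.939 against 1.07 CPM) and C1qb (1.75 against 0.574 CPM). The part of these other cells in the differences described here was not tested. In such bulk samples, fewer cells of a type and less RNA per cell cannot be told apart.

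The stretches just before the start sites of the 2 members that were higher in every Nav-Tsc2 mouse at an adjusted p under 0.05 are shown first. They are read from RefSeq on GRCm38.p6, 5′ to 3′ on the strand of the gene and with exons of neighbouring genes left out. Capitals mark letters that match a searched motif.
Cad, chr5:31054624-31054779, plus strand: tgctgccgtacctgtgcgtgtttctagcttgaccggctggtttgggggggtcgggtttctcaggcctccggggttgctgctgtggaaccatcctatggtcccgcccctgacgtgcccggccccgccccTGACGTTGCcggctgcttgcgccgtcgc
Taldo1, chr7:141391910-141392159, plus strand: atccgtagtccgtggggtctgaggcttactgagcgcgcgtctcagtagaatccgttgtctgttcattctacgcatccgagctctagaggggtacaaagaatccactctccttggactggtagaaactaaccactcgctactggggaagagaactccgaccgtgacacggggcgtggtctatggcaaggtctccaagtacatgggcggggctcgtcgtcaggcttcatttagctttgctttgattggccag

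The motifs searched, on both strands of windows of 300 bases (250 before and 50 after the start), were the E-box CACGTG, the ATF4 response element TGATGNAA and the antioxidant response element TGACNNNGC bound by NRF2. The last shares its letters TGAC with other response elements. The antioxidant letters stood at position −28 of Cad, at position −57 of G6pdx and at position 4 from the second listed start of Pgd, and 12.4% of all 32851 windows hold them. Neither the E-box, found in 7.15% of all windows, nor the ATF4 element, found in 3.97%, stood in a window of any of the 9 members that the promoter table holds, all but Dhodh. A match of letters is a description of the window and not evidence of binding.

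**Figure D1:**
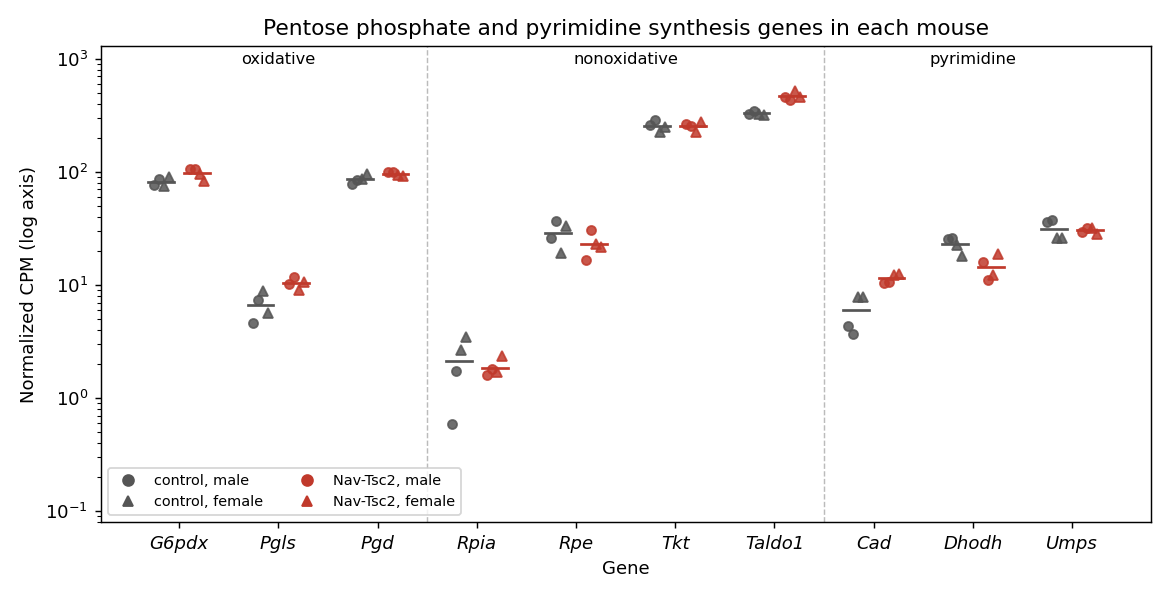
Normalized CPM (log axis) of the 10 genes in each mouse, grouped by branch of the pathway, with control mice in grey, Nav-Tsc2 mice in red, males as circles and females as triangles, and the mean of each genotype as a bar. The red points of Taldo1, Cad and Pgls lie above all grey points of the same gene, and 3 of the 4 red points of Dhodh lie below all of its grey points.

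The oxidative branch was measured through its 3 enzymes, none of which was called. G6pdx (ENSMUSG00000031400, chrX:74409483-74429194, minus strand) encodes glucose-6-phosphate dehydrogenase, the committing step that makes the first NADPH. It stood at 76.2, 87.1, 75.2 and 89.7 CPM in control mice 1 to 4 and at 106.9, 105, 96.0 and 83.8 CPM in Nav-Tsc2 mice. Nav-Tsc2 replicates 1 to 3 lay above every control mouse and replicate 4 below 2 of them, so the groups overlapped (log2 fold change 0.26, SE 0.11, adjusted p = 0.120, edgeR). Its 95% interval ran from 0.02 to 0.49, and 13.6% of its exon sequence is shared with Ikbkg on the other strand, whose reads an unstranded library cannot separate.

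Pgls (ENSMUSG00000031807, chr8:71592176-71601092, plus strand) encodes 6-phosphogluconolactonase, which opens the lactone that G6pdx makes. It stood at 4.59, 7.40, 8.85 and 5.66 CPM in control and at 10.2, 11.8, 9.00 and 10.7 CPM in Nav-Tsc2 mice. Every Nav-Tsc2 mouse lay above every control mouse, though the highest control and the lowest Nav-Tsc2 mouse differed by only a fraction of a CPM. The log2 fold change was 0.65 (SE 0.23, adjusted p = 0.0757), which missed the threshold of 0.05. The adjusted p was under 0.05 in only 3 of 16 other fits. It was 0.0315 without control replicate 3, 0.0287 with DESeq2 and 0.0213 when the 24 libraries were fitted with a random effect for each mouse. Over the 16 fits the adjusted p reached up to 0.185 and the log2 fold change went down to 0.51. Of the exon sequence of Pgls, 20.6% is shared with Fam129c on the same strand.

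Pgd (ENSMUSG00000028961, chr4:149149991-149166771, minus strand) encodes 6-phosphogluconate dehydrogenase, which makes the next NADPH and releases ribulose 5-phosphate. Its levels were 77.8, 85.4, 86.5 and 96.8 CPM in control and 98.9, 100.7, 94.8 and 91.4 CPM in Nav-Tsc2 mice. The highest control mouse exceeded 2 of the Nav-Tsc2 mice (log2 fold change 0.16, SE 0.09, adjusted p = 0.254). The 3 oxidative enzymes had a median log2 fold change of 0.26, against 0.00825 over all genes tested.

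In the nonoxidative branch, Taldo1 was the only 1 of 4 enzymes with an adjusted p under 0.05. Taldo1 (ENSMUSG00000025503, chr7:141392199-141402968, plus strand) encodes transaldolase, which passes a dihydroxyacetone unit from sedoheptulose 7-phosphate to glyceraldehyde 3-phosphate and so links ribose phosphate with glycolytic sugars. It stood at 327.7, 344.4, 326.5 and 320.6 CPM in control mice and at 460.4, 429.8, 517.8 and 457.5 CPM in Nav-Tsc2 mice. The control mice lay within a narrow band and the lowest Nav-Tsc2 mouse was well above it (log2 fold change 0.4998, SE 0.08, 95% interval 0.33 to 0.67, adjusted p = 0.00202). Because the rule for a call also asked for a log2 fold change over 0.5, Taldo1 was not called. Its adjusted p stayed under 0.05 in all 16 other fits tried, while the log2 fold change moved between 0.45 and 0.53 and passed 0.5 in 5 of them, 4 of these without control replicate 2 or without Nav-Tsc2 replicate 1, 2 or 4.

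The technical libraries of Taldo1 showed the same separation. Control libraries ran from 296 to 382 CPM and Nav-Tsc2 libraries from 413 to 609.9 CPM, so each of the 12 Nav-Tsc2 libraries lay above the highest control library. Within a mouse the 3 libraries varied by a median coefficient of variation of 6.79%, which is the lowest of the 10 genes. No exon of another gene overlaps Taldo1.

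**Figure D2:**
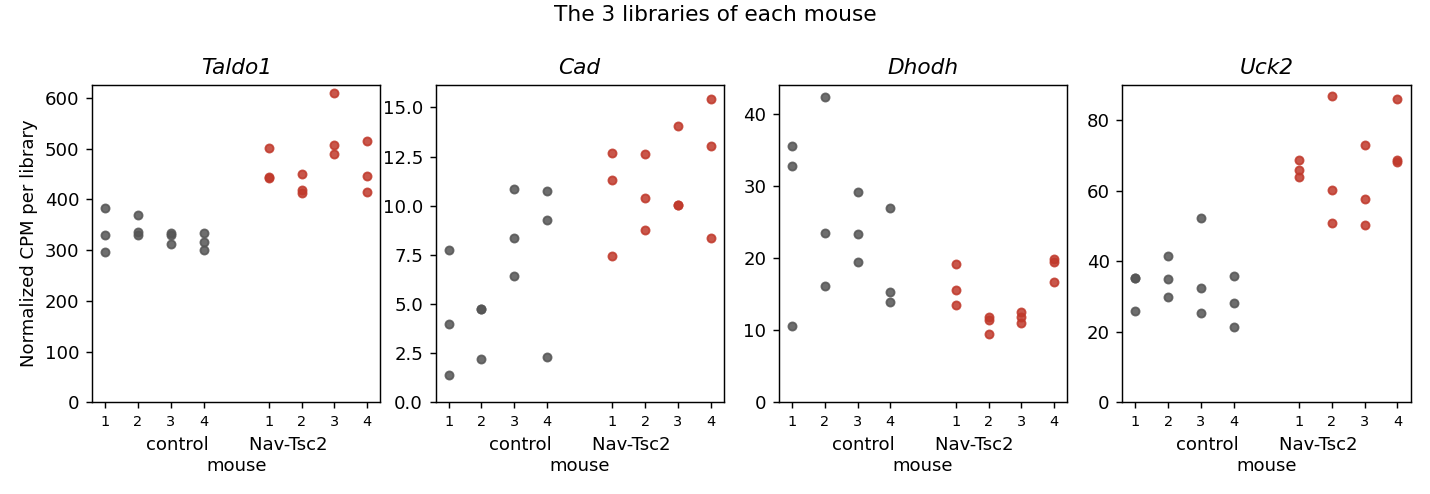
Normalized CPM in each of the 3 libraries of every mouse, control in grey and Nav-Tsc2 in red, for Taldo1, Cad, Dhodh and Uck2, with mouse numbers on the horizontal axis and a vertical axis that starts at 0 in each panel. The 12 red points of Taldo1 lie above all grey points, whereas the libraries of Cad and Dhodh from the same mouse scatter widely.

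Tkt (ENSMUSG00000021957, chr14:30548359-30574720, plus strand) encodes transketolase, the thiamine-dependent partner of transaldolase. It stood at 260.4, 286.3, 223.2 and 250.1 CPM in control and at 266.9, 256.1, 227.1 and 278.6 CPM in Nav-Tsc2 mice. The groups covered the same range, with replicate 3 the lowest mouse of each (log2 fold change 0.01, SE 0.10, adjusted p = 0.954). The 95% interval of the difference ran from −0.21 to 0.23, which does not reach the log2 fold change of Taldo1. The sign of the Tkt difference changed with the scaling of the libraries.

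Rpe (ENSMUSG00000026005, chr1:66700831-66719805, plus strand) encodes ribulose-phosphate 3-epimerase, which makes xylulose 5-phosphate for transketolase. It stood at 26.1, 36.5, 19.3 and 33.03 CPM in control and at 16.8, 30.8, 23.3 and 21.9 CPM in Nav-Tsc2 mice. The ranges of the genotypes overlapped over most of their width (log2 fold change −0.31, SE 0.23, adjusted p = 0.398). Kansl1l on the other strand shares 17.9% of its exon sequence.

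Rpia (ENSMUSG00000053604, chr6:70765720-70792232, minus strand) encodes ribose-5-phosphate isomerase, which turns ribulose 5-phosphate into the ribose 5-phosphate of nucleotides. It was the lowest of the 10 genes, at 0.593, 1.74, 2.68 and 3.49 CPM in control and 1.605, 1.804, 1.70 and 2.35 CPM in Nav-Tsc2 mice. Between 35 and 174 reads per mouse lay behind these values, and 1 control library had none. The interval of the difference ran from −1.32 to 0.95 (log2 fold change −0.19, SE 0.51, adjusted p = 0.840), so a difference as large as that of Cad, in either direction, was not detectable at this depth.

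The 7 pentose phosphate enzymes had a median log2 fold change of 0.155, and edgeR called 0 of them in either direction. With no adjustment, 3 of the 7 had a p under 0.05, all higher. The share of all genes at that threshold was not counted, so nothing about the pathway is read from this count. In edgeR an adjusted p under 0.05 alone was reached upward by 1862 and downward by 1757 of all 17178 genes, and by 1 of the 7. DESeq2 called 1 of the 7, Pgls, and called 2234 higher and 1948 lower of the 30194 genes it fitted. Across all genes tested in edgeR, 9.12% were called higher and 8.00% lower in Nav-Tsc2 mice. Every Nav-Tsc2 mouse exceeded every control mouse for 2 of the 7, Pgls and Taldo1, and the reverse held for none of them. Over all genes tested the same was so of 14.6% in the upward and 12.3% in the downward direction.

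**Figure D3:**
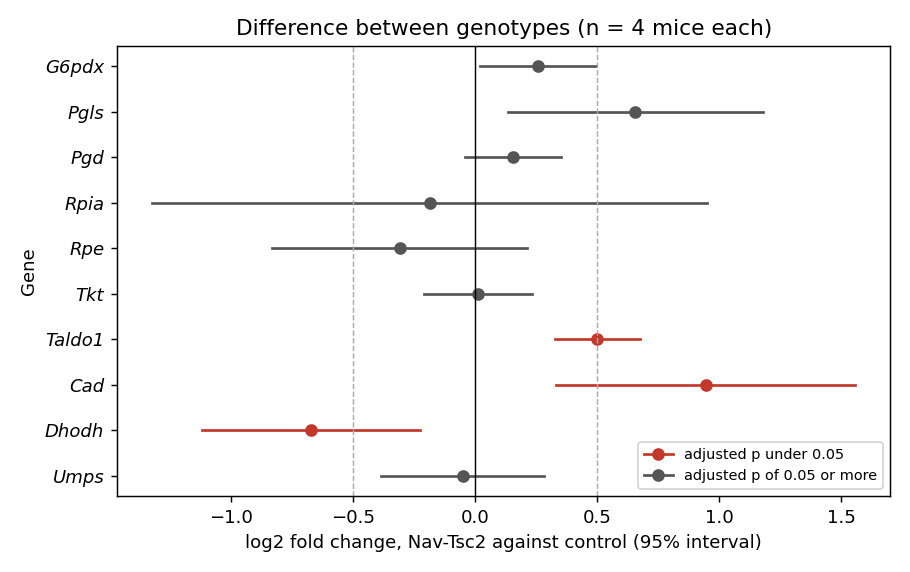
Log2 fold change of each of the 10 genes, Nav-Tsc2 against control, with its 95% interval, from edgeR on counts summed per mouse. Red marks an adjusted p under 0.05, the dashed lines mark the log2 fold changes of −0.5 and 0.5 that a call requires, and the intervals of Taldo1 and Cad lie to the right of 0 while that of Dhodh lies to the left.

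Pyrimidine synthesis held the 2 calls of the set, in opposite directions. Cad (ENSMUSG00000013629, chr5:31054780-31078479, plus strand) encodes the large multifunctional protein that carries carbamoyl-phosphate synthetase, aspartate transcarbamylase and dihydroorotase, the opening steps of the pathway. It stood at 4.39, 3.71, 7.91 and 7.83 CPM in control mice 1 to 4 and at 10.3, 10.7, 12.4 and 12.4 CPM in Nav-Tsc2 mice. The male controls were the lowest mice and the female controls lay between them and the Nav-Tsc2 mice, with no overlap between genotypes (log2 fold change 0.94, SE 0.27, 95% interval 0.33 to 1.56, adjusted p = 0.0360). Cad was the only member called higher, 1 of 10 against 9.12% of all genes.

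The rise of Cad rested on low counts. Between 196 and 758 reads per mouse mapped to it, and libraries of 1 mouse varied by a median coefficient of variation of 27.5%. Control libraries ran from 1.38 to 10.8 CPM and Nav-Tsc2 libraries from 7.44 to 15.4 CPM, so 6 of the 12 Nav-Tsc2 libraries exceeded the highest control library. The adjusted p rose to 0.0798 without control replicate 1, 0.0618 without control replicate 2, and 0.0711, 0.0713, 0.0846 and 0.0870 without Nav-Tsc2 replicates 1 to 4, at log2 fold changes of 0.77 to 0.99 in these fits.

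Dhodh (ENSMUSG00000031730, chr8:109591343-109608673, minus strand) encodes dihydroorotate dehydrogenase, the mitochondrial enzyme that oxidizes dihydroorotate and passes the electrons to ubiquinone. It stood at 25.3, 26.2, 22.6 and 18.2 CPM in control and at 15.9, 11.1, 12.2 and 18.8 CPM in Nav-Tsc2 mice. Nav-Tsc2 replicates 1 to 3 lay below every control mouse, but replicate 4 lay just above control replicate 4, so the groups overlapped. The log2 fold change was −0.67 (SE 0.20, 95% interval −1.12 to −0.23, adjusted p = 0.0396), and Dhodh was the only member called lower, 1 of 10 against 8.00% of all genes.

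The fall of Dhodh was close to the threshold. Its adjusted p was 0.0528 with no filter on low counts, 0.0901 with the replicate number as a block and 0.0515 with sex as a covariate. It was 0.0867, 0.0909 and 0.0548 without control replicates 1 to 3 and 0.0759, 0.102 and 0.10 without Nav-Tsc2 replicates 1 to 3. The direction was the same in each of the 16 other fits, with log2 fold changes between −0.83 and −0.57. Control libraries spread from 10.6 to 42.4 CPM and Nav-Tsc2 libraries between 9.45 and 19.9 CPM. The highest Nav-Tsc2 library was exceeded by 7 of the 12 control libraries.

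Umps (ENSMUSG00000022814, chr16:33954782-33967038, minus strand) encodes UMP synthase, which joins orotate to PRPP and completes UMP. It stood at 36.3, 37.7, 26.2 and 26.3 CPM in control and at 29.4, 31.9, 32.2 and 28.4 CPM in Nav-Tsc2 mice. The Nav-Tsc2 mice lay between the male controls, which were the highest mice, and the female controls, which were the lowest (log2 fold change −0.05, SE 0.15, adjusted p = 0.849). The interval ran from −0.39 to 0.28, and an antisense gene shares 6.11% of its exon sequence. The 3 pyrimidine enzymes had a median log2 fold change of −0.0527.

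Whether the difference between genotypes itself differed by sex was tested in a fit with a genotype by sex term, with 2 mice per genotype and sex. Of the 10 genes, 0 had an adjusted p under 0.05 in edgeR, also with DESeq2 size factors or no filter on low counts, and 1 (Umps) had an unadjusted p under 0.05. The lowest adjusted p were 0.541 for Umps (unadjusted p = 0.0491) and 0.577 for Cad (unadjusted p = 0.0669). For Cad the log2 ratio of mean CPM was 1.38 in males and 0.66 in females, and for Umps it was −0.27 in males and 0.21 in females. Over all 17178 genes, 1 passed this test and 1583 had an unadjusted p under 0.05. Neuronal markers also separated male from female control mice, among them Ret (145.9, 120.8, 467.1 and 390.9 CPM in control mice 1 to 4) and Tac1 (3268, 1822, 934 and 798.4 CPM). Prph and Prdm12 did not. The part of the neuronal mixture in differences between male and female controls was not tested.

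Levels of different genes were compared as CPM per kilobase of exon. In control mice the order was Taldo1 at 152 ± 4.70 (SD, n = 4), Tkt at 34.7 ± 3.55, G6pdx at 26.6 ± 2.40, Pgd at 13.4 ± 1.22, Rpe at 9.23 ± 2.45, Umps at 9.07 ± 1.79, Dhodh at 3.65 ± 0.569, Pgls at 1.76 ± 0.498, Cad at 0.728 ± 0.272 and Rpia at 0.397 ± 0.233. Rpe and Umps did not differ beyond their spread, nor did Cad and Rpia. Transaldolase and transketolase transcripts were thus the most abundant of the set and those for Cad and Rpia the least.

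In Nav-Tsc2 mice Taldo1 reached 215 ± 17 and Tkt 35.0 ± 3.00 CPM per kilobase, while the spread of G6pdx at 31.8 ± 3.44 overlapped that of Tkt. Pgls at 2.77 ± 0.312 and Dhodh at 2.29 ± 0.563 changed places in the order, but their spreads overlapped. Cad at 1.40 ± 0.133 stood above Rpia at 0.348 ± 0.0625, beyond the spread of both. Pgd at 15.0 ± 0.647, Umps at 8.74 ± 0.543 and Rpe at 7.45 ± 1.86 kept the middle of the order, the last pair with spreads that overlapped.

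Genes around these pathways were followed in lists of known members. Of 12 genes beside the pentose phosphate pathway, 10 were tested and 0 were called by edgeR, with a median log2 fold change of 0.143. At an unadjusted p under 0.05 there were 2 of them, and the share of all genes at that threshold was not counted. The most abundant was Prps1, which makes PRPP from ribose 5-phosphate, at 110.1, 120.6, 133.8 and 123.2 CPM in control and 93.7, 99.9, 103.6 and 109.8 CPM in Nav-Tsc2 mice. Every Nav-Tsc2 mouse lay below every control mouse, but the adjusted p was 0.0640 (log2 fold change −0.26, SE 0.09). It passed the threshold in 6 of 16 other fits, among them that without control replicate 1 (adjusted p = 0.0483). With DESeq2, as with edgeR, 0 of these genes were called, and 1 was called higher when the 24 libraries were fitted with a random effect for each mouse.

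Beyond UMP, the list of pyrimidine conversion, salvage and breakdown held 30 tested genes, of which 4 were called higher and 4 lower. Over all genes tested, 9.12% were called higher and 8.00% lower. The median log2 fold change of the list was 0.00263. The salvage kinase Uck2, which phosphorylates uridine and cytidine and so makes UMP without the steps of Cad, Dhodh and Umps, rose from 31.4, 35.4, 35.5 and 29.9 CPM in control to 66.3, 64.9, 58.2 and 76.1 CPM in Nav-Tsc2 mice. The genotypes were far apart, and 10 of 12 Nav-Tsc2 libraries exceeded the highest control library (log2 fold change 1.01, SE 0.11, adjusted p = 0.000384). Its relative Uck1 was also called higher (log2 fold change 0.76, SE 0.21, adjusted p = 0.0305). That call was lost with no filter on low counts (adjusted p = 0.0606), with the replicate block (0.0757), without control replicate 1 (0.0689) or 2 (0.0647) and without Nav-Tsc2 replicate 1 (0.0575), 2 (0.0850) or 4 (0.0913).

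Uridine phosphorylases, which split uridine into uracil and ribose 1-phosphate, moved in opposite directions. Upp1 rose from 4.44, 2.37, 5.08 and 8.70 CPM to 18.9, 18.4, 8.69 and 25.3 CPM, with Nav-Tsc2 replicate 3 level with control replicate 4 (log2 fold change 1.79, SE 0.42, adjusted p = 0.0147), and its log2 fold change was 2.505 when the 24 libraries were fitted with a random effect for each mouse. Upp2 fell from 9.13, 7.44, 2.91 and 5.92 CPM to 1.75, 2.57, 3.12 and 1.78 CPM, with 1 control mouse inside the Nav-Tsc2 range (log2 fold change −1.46, SE 0.39, adjusted p = 0.0251). Its adjusted p was 0.0658 and 0.0551 without control replicates 1 and 2, 0.0755, 0.0575 and 0.0694 without Nav-Tsc2 replicates 1, 2 and 4, and 0.0917 with the replicate block.

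The outer enzymes of pyrimidine breakdown fell. Dpyd, dihydropyrimidine dehydrogenase, the first enzyme of uracil and thymine breakdown, went from 18.3, 23.1, 13.4 and 15.8 CPM to 7.67, 10.7, 6.53 and 8.87 CPM (log2 fold change −1.06, SE 0.22, adjusted p = 0.00849). Upb1, beta-ureidopropionase, the last enzyme of that route, went from 7.74, 5.43, 9.28 and 7.03 CPM to 2.22, 2.33, 2.01 and 2.66 CPM (log2 fold change −1.68, SE 0.25, adjusted p = 0.00180). In neither gene did the genotypes overlap. Dpys, which acts between them, was at 0.843 to 2.27 CPM in control and 1.27 to 2.52 CPM in Nav-Tsc2 mice (log2 fold change 0.33, SE 0.46, adjusted p = 0.667). Rrm2, the small subunit of ribonucleotide reductase, rose from a mean of 1.69 to 5.92 CPM (log2 fold change 1.81, SE 0.34, adjusted p = 0.00521), and Cmpk2, a mitochondrial nucleotide kinase, fell (log2 fold change −0.62, SE 0.19, adjusted p = 0.0425). The adjusted p of Cmpk2 was 0.0552 with sex as a covariate, 0.0516 with no filter on low counts, 0.0776 with the replicate block, and between 0.0694 and 0.104 when control replicate 1 or 4 or any 1 Nav-Tsc2 mouse was left out, at −0.42 without control replicate 4. Nme1, the gene of the list with the highest mean CPM over both genotypes, was at 311.6 CPM in control and 362 CPM in Nav-Tsc2 mice on average (log2 fold change 0.22, SE 0.08, adjusted p = 0.0780), and 12.5% of its exon sequence is shared with Gm20390 on the same strand.

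**Figure D4:**
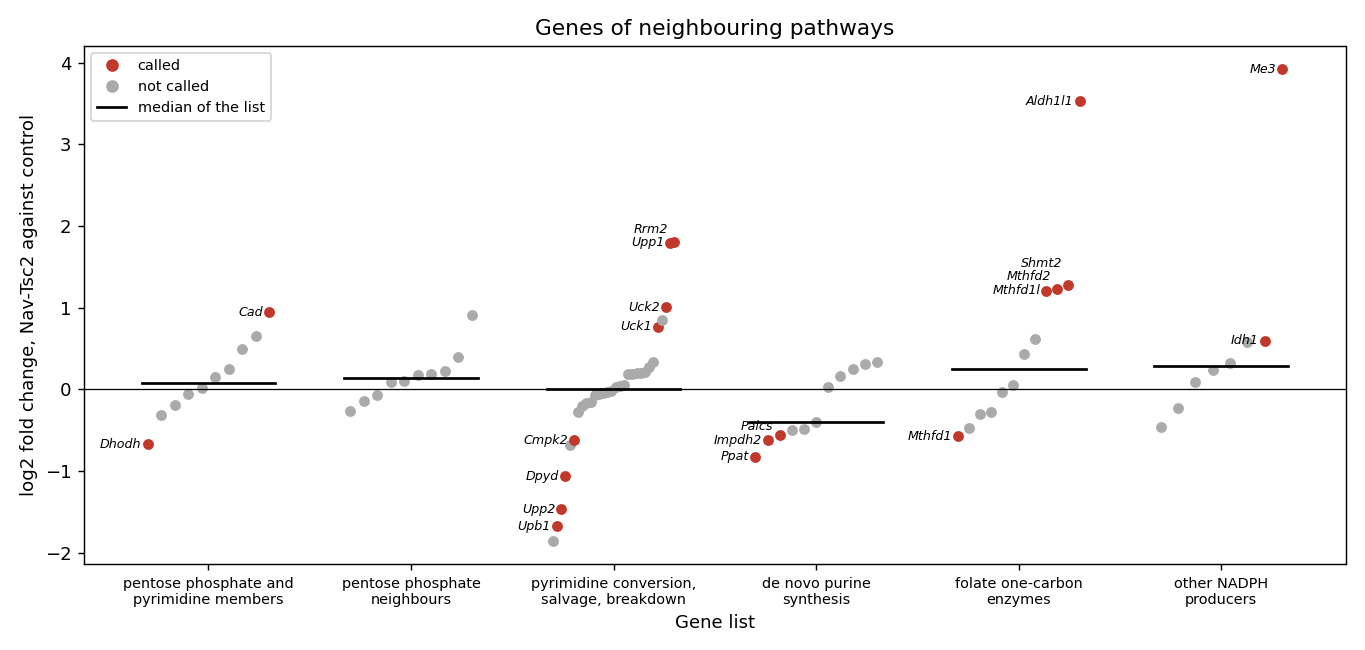
Log2 fold change, Nav-Tsc2 against control, of the 10 genes and of the tested genes in 5 lists of neighbouring pathways, ordered within each list, with called genes in red and labelled and the median of each list as a black bar. De novo purine synthesis has the lowest median, −0.398, and Aldh1l1 and Me3 have the largest log2 fold changes shown.

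De novo purine synthesis, the other pathway that consumes PRPP, held 3 genes called lower and 0 called higher of 11 by edgeR. Of all genes tested, 8.00% were called lower and 9.12% higher. The list had a median log2 fold change of −0.398. Ppat, the amidotransferase that commits PRPP to purines, fell from 32.4, 33.5, 28.7 and 33.2 CPM to 17.2, 17.1, 20.4 and 17.4 CPM (log2 fold change −0.82, SE 0.12, adjusted p = 0.00126). Paics, a bifunctional enzyme of the middle of the pathway, fell from a mean of 183 to 124 CPM (log2 fold change −0.56, SE 0.11, adjusted p = 0.00594), to −0.49 without control replicate 2. The pair lie head to head, and share 6.15% of the exon sequence of Ppat and 8.67% of that of Paics.

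Impdh2, which leads to guanine nucleotides, fell from a mean of 9.06 to 5.89 CPM (log2 fold change −0.62, SE 0.19, adjusted p = 0.0451), but its adjusted p was between 0.0752 and 0.115 when any 1 mouse other than control replicate 3 was left out, 0.0561 with sex as a covariate, 0.0985 with no filter on low counts and 0.123 with the replicate block. Gmps, GMP synthetase, had the highest CPM of the list, though per kilobase of exon Paics stood higher (58.2 against 31.5 in control mice). Gmps was lower in every Nav-Tsc2 mouse (255 against 194 CPM on average, log2 fold change −0.40, SE 0.10, adjusted p = 0.0182), short of the fold that a call requires. Atic, the last enzyme of the pathway, had a log2 fold change of 0.34 (SE 0.11, adjusted p = 0.0486), the only gene of the list to pass the p threshold upward, and passed it in 4 of 16 other fits. With DESeq2, 0 of the 11 were called higher, and 1 of the 11, Atic, had an unadjusted p under 0.05 upward in edgeR.

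Folate enzymes, which supply formyl groups to purines and a methyl group to thymidylate, held 4 genes called higher and 1 lower of 12. The shares over all genes were 9.12% higher and 8.00% lower. Mthfd2, the mitochondrial methylenetetrahydrofolate dehydrogenase, rose from 56.7, 55.7, 61.1 and 70.8 CPM to 148.0, 126, 152 and 148.5 CPM (log2 fold change 1.23, SE 0.11, adjusted p = 9.63e-05). Shmt2, the mitochondrial serine hydroxymethyltransferase, rose from a mean of 16.8 to 40.5 CPM (log2 fold change 1.27, SE 0.17, adjusted p = 0.000951), and Mthfd1l, which releases formate from mitochondria, had a log2 fold change of 1.21 (SE 0.24, adjusted p = 0.00687). For these 3 mitochondrial enzymes the genotypes did not overlap. Mthfd2l (log2 fold change −0.28, SE 0.33, adjusted p = 0.615) and Aldh1l2 (−0.03, SE 0.51, adjusted p = 0.979), also mitochondrial, were not called, and their genotypes overlapped. Aldh1l1, a formyltetrahydrofolate dehydrogenase also used as a marker of astrocytes, rose from 0.746, 3.50, 3.54 and 0.442 CPM to 16.8, 25.4, 21.2 and 31.7 CPM (log2 fold change 3.53, SE 0.63, adjusted p = 0.00396), to 4.76 with a random effect for each mouse, and noncoding genes share 13.4% of its exon sequence.

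The cytosolic counterpart Mthfd1 fell from a mean of 16.98 to 11.4 CPM (log2 fold change −0.57, SE 0.18, adjusted p = 0.0463). Its call was lost when any 1 mouse other than Nav-Tsc2 replicate 2 was left out, at adjusted p between 0.0622 and 0.110, and also with the replicate block (0.0594), with no filter on low counts (0.0758) and with libraries weighted equally (0.0597).

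Among 8 other genes of NADPH supply, 2 were called higher and 0 lower by edgeR, against 9.12% and 8.00% of all genes. At an unadjusted p under 0.05, 0 were lower, and DESeq2 called 0 lower. Idh1, the cytosolic NADP-dependent isocitrate dehydrogenase, was the most abundant and rose from 438, 357, 506 and 502 CPM to 691, 655, 747 and 634.5 CPM (log2 fold change 0.60, SE 0.12, adjusted p = 0.00661), to 0.4992 without control replicate 2. Me3, a mitochondrial malic enzyme, rose from 0.610, 0.0379, 0.127 and 0.0803 CPM to 5.16, 4.14, 2.06 and 1.79 CPM (log2 fold change 3.92, SE 0.85, adjusted p = 0.0105), so that it was nearly undetected in control mice, and the log2 fold change was 5.29 without control replicate 1. In mean CPM, Idh1 rose from 451 to 682 while G6pdx stood at 82.0 against 98.0 and Pgd at 86.6 against 96.5.

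Of 10 tested genes for upstream regulators, 3 were called higher and 2 lower, against 9.12% and 8.00% of all genes. Atf4, a stress-responsive transcription factor whose translation mTORC1 raises, rose from 88.9, 76.1, 102.4 and 81.9 CPM to 193.7, 198.7, 208.5 and 194.1 CPM (log2 fold change 1.19, SE 0.10, adjusted p = 9.36e-05). Hif1a rose from a mean of 75.1 to 129 CPM (log2 fold change 0.78, SE 0.12, adjusted p = 0.00187) with 8.11% of its exon sequence shared, and Nfe2l2, which encodes NRF2, rose from 75.2 to 124 CPM (log2 fold change 0.72, SE 0.13, adjusted p = 0.00408). Srebf1 and Srebf2, which encode regulators of lipid synthesis and of G6pdx, had log2 fold changes of −0.13 (SE 0.24, adjusted p = 0.758) and 0.19 (SE 0.15, adjusted p = 0.436).

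Rps6kb1, a gene for S6 kinase, fell from a mean of 73.6 to 51.6 CPM (log2 fold change −0.51, SE 0.12, adjusted p = 0.0180), and its log2 fold change lay short of −0.5 without control replicate 2 (−0.4989) or 4 (−0.47) and without Nav-Tsc2 replicate 2 (−0.42) or 3 (−0.49). Rps6kb2, the other S6 kinase gene, stood at 16.2 against 16.8 CPM on average and was not called (log2 fold change 0.05, SE 0.21, adjusted p = 0.903). Myc fell from 112.6, 93.9, 57.5 and 66.2 CPM to 45.0, 53.6, 54.1 and 55.3 CPM, where the female controls were close to the Nav-Tsc2 mice and the male controls were not (log2 fold change −0.67, SE 0.20, adjusted p = 0.0404). The adjusted p of Myc was 0.0866 and 0.0941 without control replicates 1 and 2 and between 0.0797 and 0.114 when any 1 Nav-Tsc2 mouse was left out, and 0.10 with the replicate block.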

How the data were processed

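RNA-seq was read from 24 libraries of 100 sorted cells, 3 per mouse from 4 control and 4 Nav-Tsc2 mice. The authors aligned single 50-base reads of an unstranded kit to mm10 with STAR, and the deposited values are their HTSeq counts per gene and library, without normalization. Their annotation is not given in the sources used here, and gene models are those of GENCODE M21 (GRCm38), matched by identifier for 47224 of 47643. A deposited table of the authors' DESeq2 comparison holds mean normalized counts, fold changes and p-values and was not used. Reads were amplified without molecular identifiers, so read counts are not independent molecules.

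The 3 libraries of a mouse were added up, and edgeR 4.0.16 (R 4.3.3) compared the genotypes (quasi-likelihood F-test, TMM, filterByExpr, Benjamini-Hochberg adjustment over 17178 genes). The study's thresholds made a call: adjusted p under 0.05 together with a log2 fold change beyond 0.5 in either direction. SE came from the fold change and the square root of its F value. The test was tried on simulated counts first. The alternatives were DESeq2 1.42.0, other scalings, sex as a covariate, a replicate block, no low-count filter, equal weight for each library, all 24 libraries in limma 3.58.1 with mice as random effects, no fold threshold, and leaving out each mouse. The members and lists were chosen with earlier results of these data known. In each list of neighbouring pathways the called genes with the smallest adjusted p, at most 3 in each direction, and the gene with the highest mean CPM were named. Uck1, Cmpk2, Dpys, Atic, Mthfd1l, Mthfd2l, Aldh1l2, Rps6kb2, Srebf1 and Srebf2 do not meet this rule, and they were added once their values had been seen. The same holds for the marker genes S100b, Tubb3, Prph, Isl1, Rbfox3, Hbb-bt, Cldn5, C1qa, Flt1, Ly6c1, Kdr, Cx3cr1, Tek, Pecam1, Cdh5, Csf1r, Cd68, Aif1, Mrc1 and C1qb. Ret, Tac1, Prdm12, Pmp22, Dcn, Col1a1, Col1a2, Col3a1, Pdgfra and Lum were added in the same way.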

Additional observations from a re-analysis of the deposited data

Results flagged for a closer look

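Among the groups of 4 mice tested for a mouse far from the others, 4 of 82 held one, where chance gives 4.1 (about 1 group in 20). None of them belonged to the 10 genes of the pentose phosphate and pyrimidine pathways. Ppat stood at 20.4 CPM in Nav-Tsc2 replicate 3, above the other Nav-Tsc2 mice (17.1 to 17.4 CPM) and below every control mouse. Mthfd2 stood at 126 CPM in Nav-Tsc2 replicate 2, below the other Nav-Tsc2 mice and above every control mouse. Me3 stood at 0.610 CPM in control replicate 1, above the other controls (0.0379 to 0.127 CPM). Myc stood at 45.0 CPM in Nav-Tsc2 replicate 1, the lowest of all 8 mice.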

How the results depend on the processing

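The number of members called higher was 1, and 2 with DESeq2, with libraries weighted equally, with random effects for mice over 24 libraries, and with no fold threshold. It ranged from 0 to 2 when each mouse was left out. The number called lower was 1, and 0 with no low-count filter, with the replicate block and with sex as a covariate, and ranged from 0 to 1 when each mouse was left out. The median of the pentose phosphate enzymes moved from 0.155 to 0.238 with random effects for mice, a fit in which 2207 genes were called higher and 1253 lower against 1567 and 1374. In the neighbouring lists, that fit called 1 pentose phosphate neighbour higher, the replicate block left 2 pyrimidine genes, 0 folate genes and 1 regulator called lower, no fold threshold gave 1 purine gene called higher, and no low-count filter and libraries weighted equally each left 0 folate genes called lower. Leaving out each mouse gave 2 to 4 pyrimidine genes, 1 to 4 purine genes, 0 to 1 folate genes and 0 to 2 regulators called lower, and 1 to 3 genes of NADPH supply called higher.

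Signs turned for 3 members and Srebf1, none near the threshold. Rpia went to 0.0369 with the replicate block, 0.523 with random effects for mice and 0.159 without control replicate 4, and ranged from −0.4997 to 0.159 as each mouse was left out. Tkt went to −0.00231 with DESeq2 size factors, −0.0179 with upper-quartile scaling and −0.00393 with DESeq2, and ranged from −0.0554 to 0.0714 as each mouse was left out. Umps ranged from −0.143 to 0.0417 and Srebf1 from −0.302 to 0.0189 as each mouse was left out. The cause of these changes was not tested.

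Mice with equal replicate numbers also share their sex, and no other tie is given. Their deviations correlated across 8445 genes at 0.0831, 0.108, 0.0187 and 0.107 on log2(CPM + 1), and at 0.101, 0.121, 0.0341 and 0.124 with 0.5 in place of 1, so replicate 3 stayed under 0.1 and the numbers were not taken as pairs. Of the mice, 4 of 8 correlated best with their own number. The replicate block called 1329 genes higher and 1116 lower. The fewest reads per mouse among the 10 genes lay behind Rpia (35 to 174), Cad (196 to 758) and Pgls (271 to 669).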
